A study of Mus musculus with 4 samples.

Results

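Fibroblast growth factor (FGF) ligands and receptors were followed in whole gonads of male mouse embryos from day 12.5 to day 15.5 of gestation. The group holds 9 genes, taken by name: the ligands Fgf9, Fgf8, Fgf7, Fgf10 and Fgf18 and the receptors Fgfr1, Fgfr2, Fgfr3 and Fgfr4. Every one of the 9 had a probe on the array, matched by the RefSeq accession in the scanner files, and together they had 15 of the 41174 probes. A probe was used if its signal was well above background, as the scanner software marks it, on both arrays of at least 1 stage. By that filter 8 of the 9 genes were tested, among 21986 genes in all, and Fgf7 was not.

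The embryos were wild type, of the mouse line given as MCH, and the labels set the 4 groups apart by stage alone, 1 for each day of gestation (E12.5 to E15.5). Gonads were dissected, total RNA was extracted, and Cy3-labelled cRNA was hybridised to one-colour Agilent arrays, with 2 arrays per stage that the series text calls biological duplicates. The labels do not say how many gonads or embryos went into an array. Each value is a log2 intensity, background-subtracted by the scanner software, from which that array's 75th percentile over probes was taken away, so 0 is the brightness at that percentile. Each probe has its own efficiency, so these values compare a gene between stages and say nothing of the amount of one gene against another.

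FGFs are secreted proteins that bind receptor tyrosine kinases together with heparan sulfate at the cell surface, and the receptors signal through the Ras, MAP kinase, phospholipase C and PI3 kinase pathways. Cells answer by transcribing Etv factors and feedback inhibitors of the Sprouty, Spred and Dusp families. In the fetal testis Fgf9 is the best known member: Sertoli cells make it, it signals through Fgfr2, it sustains Sox9 and it opposes the ovarian signal Wnt4.

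The arrays lay on 3 slides. The first arrays of the 2 early stages shared slide 1 and the second arrays shared slide 2. The 4 arrays of the late stages shared slide 3, read in a separate scan with a later software version. Hence E13.5 and E12.5 can be compared within slides, and E15.5 and E14.5 within a slide. The main limma fit, which gave the standard errors and adjusted p-values, had 1 mean per stage and no slide term. Its p-values are therefore not those of a test within slides. In E14.5 against E13.5 and in E15.5 against E12.5, slide, scan and stage cannot be told apart. Probes well above background made up 60.3% to 69.8% of all probes on an array, and duplicates correlated across genes at r of 0.977 to 0.989. Some arrays of neighbouring stages were as alike, with 0.978 for array 1 of E12.5 and of E13.5. E14.5 array 2 and E15.5 array 1 had 0.986. Others were less so, down to 0.944 for E13.5 array 2 and E14.5 array 1. Of 13 Sertoli and supporting cell markers, 12 were above background on all 8 arrays, Sox9 and Amh among them, as were 8 of 10 germ cell markers and 5 of 6 Leydig cell markers. In such whole-tissue samples, fewer cells of a type and less RNA per cell cannot be told apart.

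Fgf9 and Fgf8 moved in opposite directions from E12.5 to E15.5. The Fgf9 signal fell to E15.5 by 2.45 ± 0.18 log2 units (5.46-fold), and Fgf8 rose by 3.75 ± 0.28 (13.4-fold). Of the other ligands, Fgf18 fell 2.90-fold and Fgf10 2.17-fold over the same span. Among the receptors Fgfr4 rose 4.23-fold, whereas Fgfr1, Fgfr2 and Fgfr3 did not pass the test in any comparison. Each ± is a standard error of limma for 2 arrays per stage, drawn from 1 variance per gene over all stages.

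Fgf9 lies on chromosome 14 (chr14:58070671-58112854, GRCm38.p6, as all positions here). Its probe read 0.18 and -0.02 on the E12.5 arrays, -1.23 and -1.35 at E13.5, -2.11 and -2.05 at E14.5, and -2.27 and -2.47 at E15.5. Every array lay below all arrays of the stage before, and duplicates differed by at most 0.20. The scanner intensities behind these values were 1189 and 790 at E12.5 and 369 and 268 at E15.5, so the gene stayed above background on all 8 arrays. From E12.5 to E13.5 Fgf9 fell by 1.37 ± 0.18 on the log2 scale (2.58-fold; adjusted p = 0.0133), by 1.40 within slide 1 and by 1.33 within slide 2. From E13.5 to E14.5, the step that runs across slides, it fell by 0.79 ± 0.18 (1.73-fold; adjusted p = 0.0394). The step to E15.5, -0.29 ± 0.18, did not pass (adjusted p = 0.782), and over the whole span the adjusted p was 0.000300. Leaving out any one array of E12.5 or E13.5 ended the first call (adjusted p 0.0624 to 0.100), and leaving out any one of the 8 arrays ended the second (0.0631 to 0.158). No array left out ended the call over the whole span (adjusted p at most 0.00463).

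Sox9 and Wnt4, the genes that Fgf9 is known to act on in opposite directions, did not pass in any comparison. From E12.5 to E13.5 Sox9 differed by -0.85 ± 0.50 (adjusted p = 0.472) and Wnt4 by 0.26 ± 0.36 (adjusted p = 0.824). Over the whole span the differences were -0.24 ± 0.50 for Sox9 and 0.10 ± 0.36 for Wnt4. The Sox9 duplicates were far apart, with 2.34 and 1.13 on the E13.5 arrays.

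Fgf8 lies on chromosome 19 (chr19:45736491-45742941) and encodes a ligand of early patterning in many organs. Its probe read -2.48 and -2.47 at E12.5, -1.56 and -1.47 at E13.5, 1.06 and 0.40 at E14.5, and 1.01 and 1.54 at E15.5. The arrays of E12.5, E13.5 and E14.5 were separate, and those of E14.5 and E15.5 overlapped. In intensity the probe went from 189 and 145 at E12.5 to 3588 and 4324 at E15.5. It was printed at 10 spots per array, whose values on an array had a standard deviation of 0.042 to 0.17 log2 units, well below the differences between stages. The rise to E13.5 was 0.96 ± 0.28 (0.92 within slide 1, and slightly more within slide 2), which did not pass (adjusted p = 0.140). From E13.5 to E14.5, the step that runs across slides, Fgf8 rose by 2.25 ± 0.28 (4.74-fold; adjusted p = 0.0102). The adjusted p of that step was 0.0531 to 0.0608 without array 1 or array 2 of E13.5. From E14.5 to E15.5 the difference was 0.55 ± 0.28 (adjusted p = 0.682), made of -0.05 between the first arrays and 1.14 between the second. The whole-span rise had an adjusted p of 0.000326 and at most 0.00400 without any one array.

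**Figure D1:**
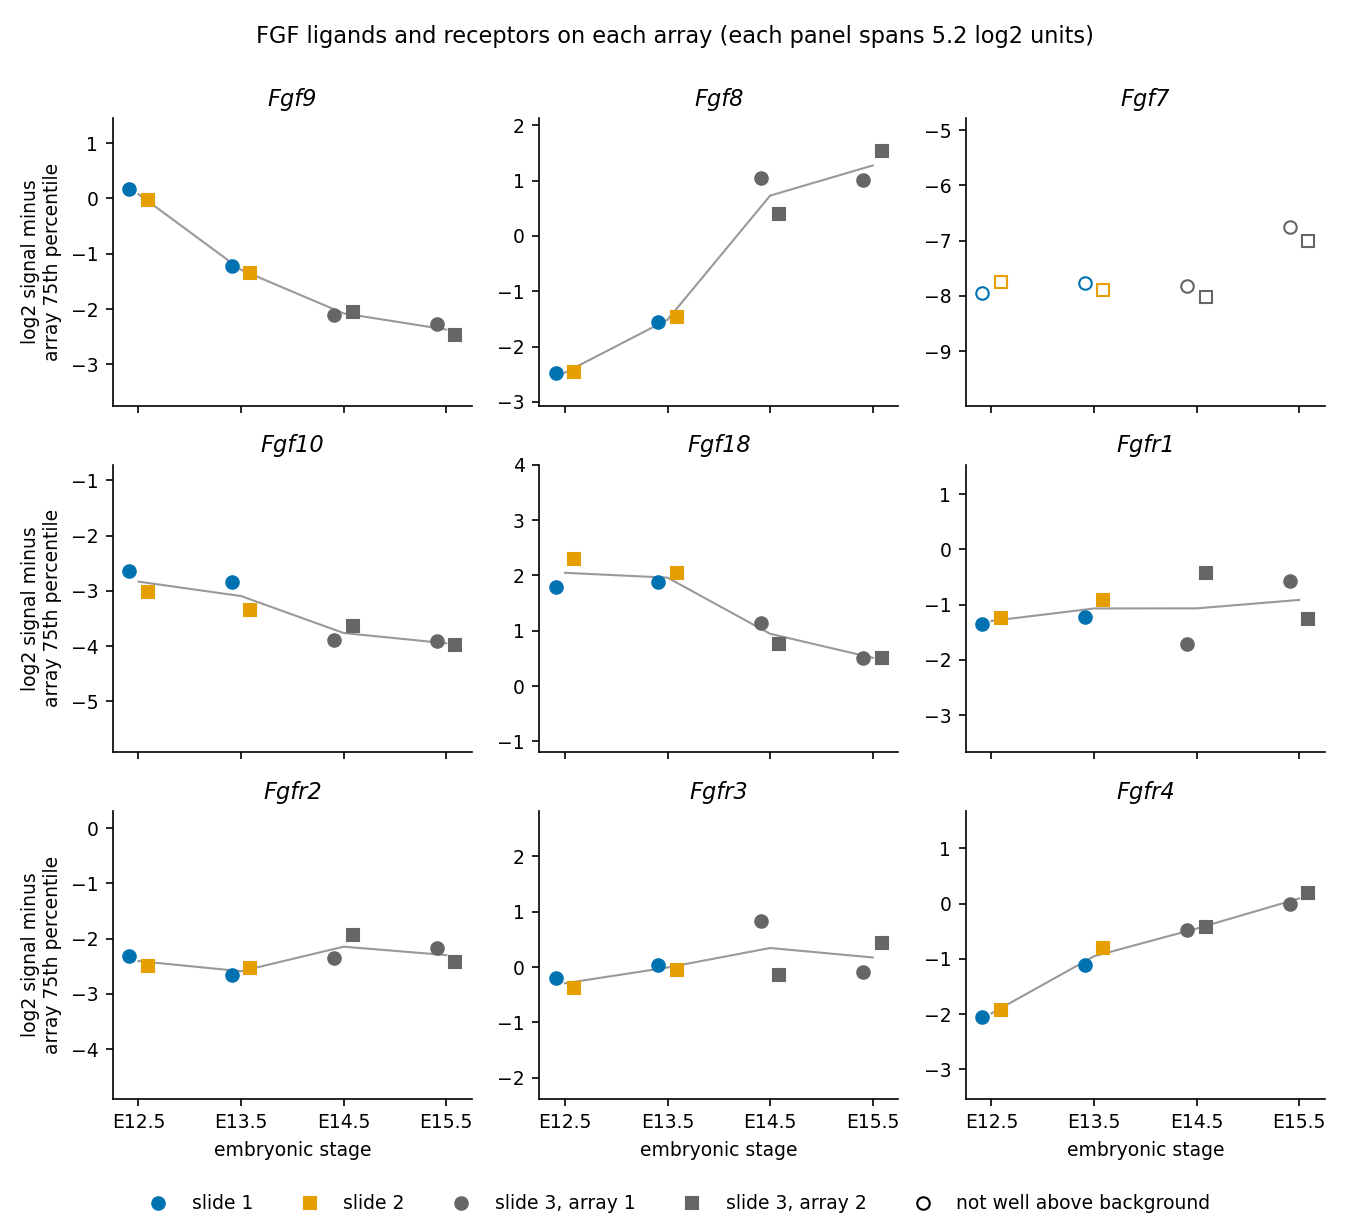
Log2 signal minus the array 75th percentile (vertical axis) of each gene at 4 embryonic stages (horizontal axis), 1 point per array, coloured by slide; grey lines join stage means, and open points are not well above background. Fgf9 steps down from 0.18 and -0.02 to -2.27 and -2.47 and Fgf8 steps up from -2.48 and -2.47 to 1.01 and 1.54, while the Fgfr1 and Fgfr3 duplicates of E14.5 lie far apart and Fgf7 is open on all 8 arrays.

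The difference of both ligands was then taken within each array, where any scaling of the array cancels. Fgf9 minus Fgf8 was 2.66 and 2.44 at E12.5, 0.33 and 0.11 at E13.5, -3.17 and -2.45 at E14.5, and -3.28 and -4.01 at E15.5. Only its movement has meaning, since the probes differ in efficiency. It fell by 2.32 from E12.5 to E13.5, fell by 3.03 to E14.5 and fell by 0.84 to E15.5, and it fell by 6.20 log2 units in all, a 73.3-fold shift of the ratio. An exact permutation test over all 2520 assignments of the 8 arrays to 4 stages gave p = 0.00952 (one-sided, F = 113), the smallest p these assignments can give. That test exchanges arrays across slides. With stages exchanged only within slides, a test added after seeing the data, 24 assignments remain and the exact permutation p was 0.167, again the smallest possible. For a single step an exact permutation test of 2 arrays against 2 cannot go below p = 0.333. Over all pairings of E12.5 and E13.5 arrays, those on different slides included, the difference fell by 2.11 to 2.54. Within slide 1 Fgf9 fell by 1.40 and Fgf8 rose by 0.917, and within slide 2 Fgf9 fell by 1.33 and Fgf8 rose by 0.998. The step from E14.5 to E15.5 lies within slide 3. The authors' deposited table, with 1 linear ratio per stage, gave 2.72, 0.969, 0.580 and 0.399 for Fgf9 from the first stage to the last. In the authors' deposited table Fgf8 had 0.867, 1.55, 7.58 and 9.31, so both genes ran the same way there.

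**Figure D2:**
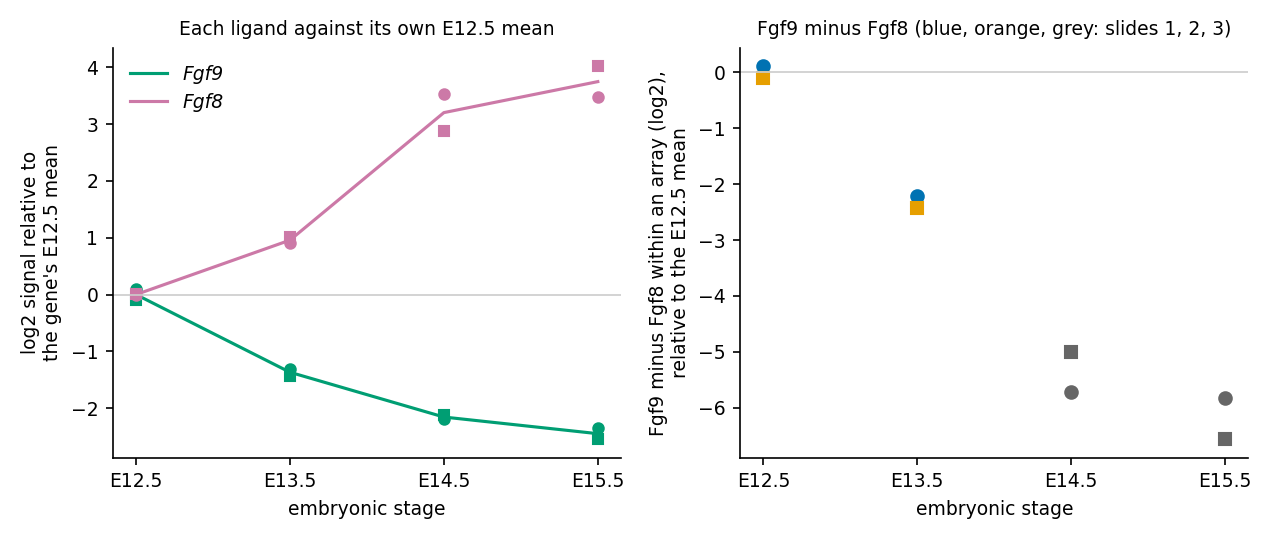
Left, log2 signal of Fgf9 and Fgf8 on each array relative to the gene's own E12.5 mean at 4 stages; right, Fgf9 minus Fgf8 within each array (log2), relative to its E12.5 mean, coloured by slide (circles array 1, squares array 2). Lines on the left join stage means. The difference moves by -2.32 between E12.5 and E13.5 and by -6.20 over the whole span.

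Fgf18 (chr11:33116970-33147400), a ligand known from bone, cartilage and lung, held its level to E13.5 and was lower at E14.5 and E15.5, the stages of slide 3. It read 1.80 and 2.30 at E12.5, 1.88 and 2.04 at E13.5, 1.14 and 0.75 at E14.5, and 0.51 and 0.51 at E15.5. The first 2 stages overlapped (-0.09 ± 0.24; adjusted p = 0.940), and all 4 later arrays lay below all 4 earlier ones. From E13.5 to E14.5, the step that runs across slides, Fgf18 fell by 1.02 ± 0.24 (2.02-fold; adjusted p = 0.0424). Within slide 3, from E14.5 to E15.5, it differed by -0.43 ± 0.24 without passing (adjusted p = 0.723). Over the whole span, which also runs across slides, Fgf18 fell by 1.54 (adjusted p = 0.00434). The E14.5 call was lost without any one array of E13.5, E14.5 or E15.5 (adjusted p 0.0792 to 0.172), and the whole-span call was kept (at most 0.0329).

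Fgf10 (chr13:118714699-118792573) encodes a mesenchymal ligand of Fgfr2 that drives branching of lung and other buds. Its probe read -2.65 and -3.02 at E12.5, -2.84 and -3.35 at E13.5, -3.89 and -3.63 at E14.5, and -3.91 and -3.98 at E15.5. No step between neighbouring days passed, with -0.26 ± 0.25, -0.67 ± 0.25 and -0.19 ± 0.25 (lowest adjusted p = 0.121). Over the whole span Fgf10 fell by 1.12 (adjusted p = 0.0154), with adjusted p 0.0603 to 0.0855 without E12.5 array 1, E15.5 array 1 or E15.5 array 2. The unscaled intensities were 167 and 99.0 at E12.5 and 118 and 93.7 at E15.5, on arrays whose 75th percentiles were 1051 and 802 and then 1784 and 1483. The gene was lower under every scaling tried.

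Fgf7 (chr2:126034658-126091185), the keratinocyte growth factor, was not well above background on any of the 8 arrays, where its intensity ran from 3.73 to 16.6. It therefore has no level here and was not tested.

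Fgfr4 (chr13:55152818-55168759), known as the receptor of the endocrine FGF of bile acid control, was the receptor with a change. It read -2.04 and -1.93 at E12.5, -1.11 and -0.80 at E13.5, -0.48 and -0.42 at E14.5, and -0.0015 and 0.19 at E15.5. Each stage lay wholly above the one before. Between E12.5 and E13.5 it rose by 1.03 ± 0.19 (2.05-fold; adjusted p = 0.0388), by 0.94 within slide 1 and by 1.13 within slide 2. That call did not hold without any one of the 8 arrays (adjusted p 0.0597 to 0.230). The next steps, 0.50 ± 0.19 and 0.54 ± 0.19, did not pass (adjusted p 0.130 and 0.392). Over the whole span Fgfr4 rose by 2.08 (4.23-fold; adjusted p = 0.000646, at most 0.00854 without any one array).

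The sequence before the annotated start is shown for Fgf18, Fgf10 and Fgfr4, the genes called over the whole span whose RefSeq entry lies outside the annotated gene. Sequences are RefSeq's on GRCm38.p6, 250 bases each, 5' to 3' on the gene's strand and ending at the base before the start, and capitals mark matches to GGGCGG (GC box) on either strand. Entries matched for 7 of the 9 genes.
Fgf18 (chr11:33147401-33147650, minus strand): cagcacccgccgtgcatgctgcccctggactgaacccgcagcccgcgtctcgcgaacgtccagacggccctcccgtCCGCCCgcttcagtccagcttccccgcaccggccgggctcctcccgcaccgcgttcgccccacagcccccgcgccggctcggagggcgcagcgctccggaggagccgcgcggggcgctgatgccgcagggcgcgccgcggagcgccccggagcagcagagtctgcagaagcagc
Fgf10 (chr13:118714449-118714698, plus strand): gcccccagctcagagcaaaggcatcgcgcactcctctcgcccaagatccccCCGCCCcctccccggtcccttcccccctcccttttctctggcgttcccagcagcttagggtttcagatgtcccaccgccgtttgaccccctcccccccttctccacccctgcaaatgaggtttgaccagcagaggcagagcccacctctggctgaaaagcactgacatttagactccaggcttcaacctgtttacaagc
Fgfr4 (chr13:55152568-55152817, plus strand): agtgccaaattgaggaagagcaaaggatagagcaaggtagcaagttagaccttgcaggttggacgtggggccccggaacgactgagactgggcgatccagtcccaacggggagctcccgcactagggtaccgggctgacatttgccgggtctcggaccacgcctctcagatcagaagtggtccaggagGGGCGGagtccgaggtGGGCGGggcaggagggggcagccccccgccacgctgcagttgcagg
Each was searched on both strands for 6 motifs, none of which contains another. The SOX motif ACAATG stands in 10.7% of 32851 windows of this length. The SF-1 motif AAGGTCA stands in 4.08% of them. The GATA motif AGATAA stands in 9.99%. The ETS motif CCGGAAG stands in 6.91%. The TATA motif TATAAA stands in 12.4%. Fgf18 and Fgf10 held 1 GC box each, 174 and 199 bases before the start, and Fgfr4 held 2, 62 and 46 bases before it. A GC box stands in 32.7% of the windows, so these matches are common. The Fgf18 window was 77.2% G and C with 37 CpG, against a median of 52.4% and 6 CpG over all windows. The Fgf9 window (chr14:58072436-58072685, plus strand), which lies inside the annotated gene, was 44.8% G and C and held 1 GATA match, 224 bases before its start. The Fgfr2 and Fgf7 windows held no match to these 6 motifs, and both Fgfr3 windows held GC boxes.

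Fgfr2 (chr7:130162451-130266808), the receptor through which Fgf9 is known to act in Sertoli cell precursors, stayed within a narrow range. It read -2.32 and -2.50 at E12.5, -2.65 and -2.53 at E13.5, -2.35 and -1.94 at E14.5, and -2.18 and -2.42 at E15.5. The lowest and the highest of the 8 arrays were 0.71 apart, and the whole-span difference was 0.11 ± 0.22 with a 95% interval of -0.41 to 0.62. Another probe of Fgfr2, above background on 6 arrays, differed by -1.13 ± 0.47 over the same span, so both probes were of opposite sign.

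Fgfr1 (chr8:25518759-25575718), the widely expressed receptor of mesenchyme, showed more spread between duplicates than between stages. It read -1.35 and -1.23 at E12.5, -1.22 and -0.92 at E13.5, -1.70 and -0.43 at E14.5, and -0.57 and -1.26 at E15.5. Its whole-span difference was 0.38 ± 0.44 with a 95% interval of -0.68 to 1.44. Array 2 was above array 1 at E14.5 and below it at E15.5, for each of the 4 Fgfr1 probes. Of those 4, one that was above background on 7 arrays differed by -0.99 ± 0.45 over the span and the other 3 by 0.10 to 0.38.

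Fgfr3 (chr5:33721724-33737068), a receptor known for restraining cartilage growth, was spread in the reverse order. It read -0.20 and -0.39 at E12.5, 0.04 and -0.06 at E13.5, 0.83 and -0.14 at E14.5, and -0.09 and 0.43 at E15.5. Its whole-span difference was 0.47 ± 0.35 with a 95% interval of -0.36 to 1.30, and a second probe gave 0.57 ± 0.39.

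The wide gaps of Fgfr1 and Fgfr3 were on slide 3. The median absolute gap between duplicates over all genes was 0.24 at E12.5 and 0.25 at E13.5, on slides 1 and 2, and 0.36 at E14.5 and 0.28 at E15.5. Fgfr1 at E14.5 had a gap of -1.28 (array 1 minus array 2), which 3.86% of genes exceeded in size, and one of 0.69 at E15.5. For Fgfr3 the gaps were 0.96 and -0.52, and for Fgf8 0.65 and -0.54. Over all genes the gaps of E14.5 and E15.5 went opposite ways, with a correlation of -0.589. Those of E12.5 and E13.5, whose same-numbered arrays share a slide, went together (0.646). Fgf9 and Fgfr4 had small gaps on slide 3, with -0.07 and 0.19 for Fgf9 and -0.06 and -0.19 for Fgfr4.

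**Figure D3:**
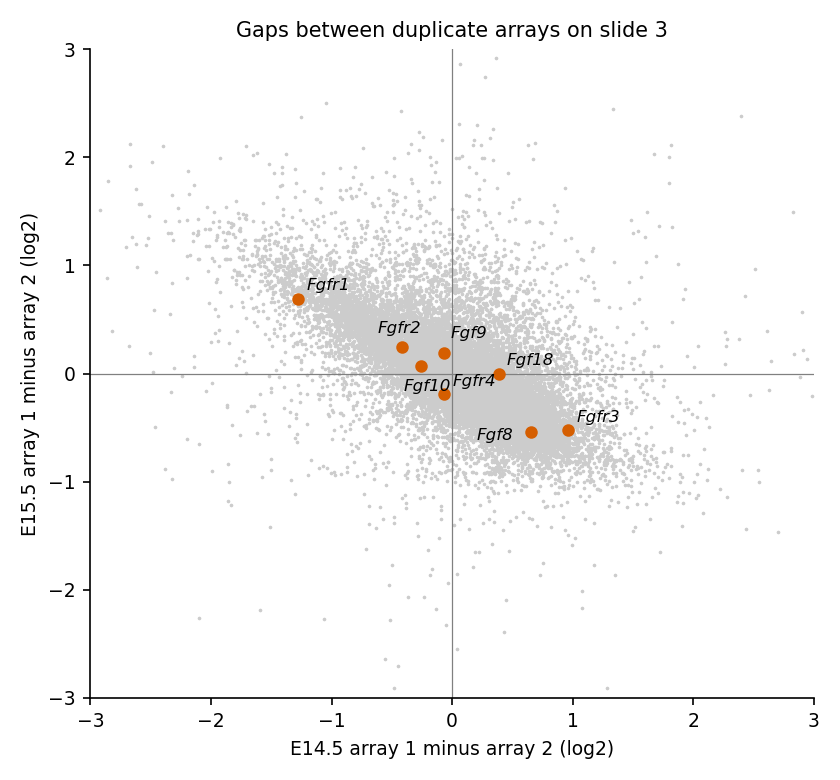
Difference between duplicate arrays (array 1 minus array 2, log2) at E14.5 (horizontal axis) and at E15.5 (vertical axis) for 21986 genes in grey, of which 54 lie outside the axes, and the 8 measured FGF genes in orange. Fgfr1 (-1.28 and 0.69) and Fgfr3 (0.96 and -0.52) lie towards opposite ends of the diagonal cloud, and Fgf9 and Fgfr4 lie near its centre.

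By limma with Benjamini-Hochberg adjustment over all genes, 2 of the 8 genes were called in E13.5 against E12.5, where 3.98% of all genes tested were called. Fgfr4 was higher, beside 2.68% of all genes, and Fgf9 lower, beside 1.3%. In E14.5 against E13.5, 3 of 8 were called against a background of 12.5%, with Fgf8 higher (6.44% of all genes) and Fgf9 and Fgf18 lower (6.04%). In E15.5 against E14.5 none of the 8 was called against a background of 0.655% (0.559% higher and 0.0955% lower), and limma gave 1 of them, Fgfr4, an unadjusted p under 0.05. In E15.5 against E12.5, 5 of 8 were called against 35.0%, with Fgf8 and Fgfr4 higher (17.6%) and Fgf9, Fgf18 and Fgf10 lower (17.4%). With so many genes called over the whole span, 5 of 8 is not far from the background. By size of change over the span, 2.14% of all genes differed by more than Fgf8, 7.24% by more than Fgf9 and 10.2% by more than Fgfr4. For Fgf18 and Fgf10 the shares were 17.7% and 28.4%. The median change of the 8 genes was 0.07, 0.18, -0.16 and 0.24 in the 4 comparisons in the order above, beside -0.06, -0.02, 0.01 and -0.07 over all genes. Arrays of both stages did not overlap for 6, 6, 4 and 6 of the 8 genes, and for 51.3%, 60.0%, 36.4% and 74.0% of all genes.

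**Figure D4:**
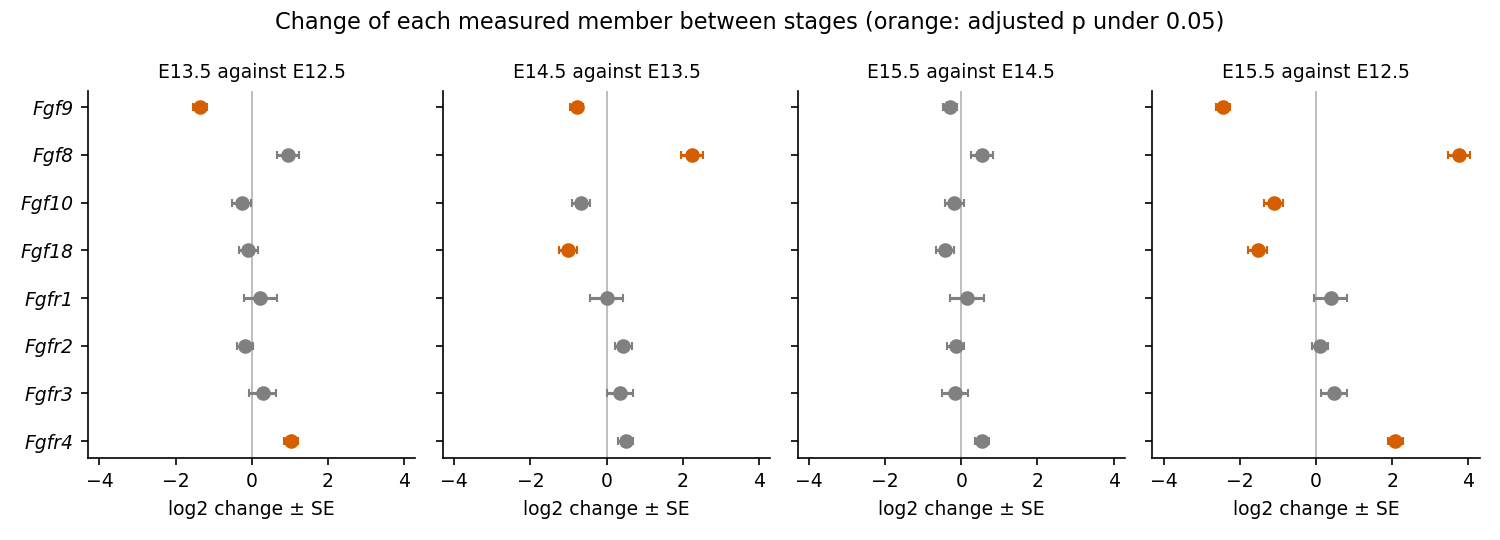
Log2 change ± SE (horizontal axis) of the 8 measured FGF genes in each of 4 comparisons, orange where the adjusted p of limma is under 0.05. Called genes number 2, 3, 0 and 5 from left to right, and over the whole span Fgf8 (3.75) and Fgf9 (-2.45) lie at opposite ends.

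Genes whose values over the 8 arrays were most like those of Fgf9 were sought among 11816 named genes above background on all arrays. Otor (r = 0.993), Tnfrsf19 (0.992), Tex13b (0.991), Abce1 (0.989) and Cebpz (0.989) came nearest, and 193 genes (1.63%) had r over 0.95. For Fgf8 they were Sncaip (r = 0.997), Eaf2 (0.997), Abca3 (0.996), Cntnap2 (0.996) and Grb7 (0.996), with 519 genes (4.39%) over 0.95. The 8 points share the stages and slides, so any gene that moved steadily scores high. Of the first 5, Tex13b fell most over the span, by 2.14 log2 units, and Cebpz least, by 0.87. Of the second 5, Cntnap2 and Abca3 rose by 2.92 and 2.91 and Sncaip by 1.53.

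Other FGF ligands were mostly dim. Of 17 listed, 15 had a probe and 7 were tested, while Fgf1, Fgf3, Fgf15, Fgf16, Fgf17, Fgf20, Fgf22 and Fgf23 did not pass the background filter. Over the whole span 1 of the 7 was higher (Fgf21) and 2 were lower (Fgf14 and Fgf11), beside 17.6% and 17.4% of all genes. Fgf21, an endocrine FGF known from fasting metabolism, was not well above background on either E12.5 array and read -3.42 and -3.49 at E13.5, -2.40 and -2.33 at E14.5, and -2.01 and -1.37 at E15.5. Each dim array was raised to the faintest signal that the software still marked as above background, unless the probe itself was brighter. The fold is then a lower bound. An adjusted p beside such a bound, here and below, is that of limma on the measured values, and is no test of the bound. Such a gene passed the filter only through the stages where it was brighter. Fgf21 was at least 5.69-fold higher at E13.5 than at E12.5 (adjusted p = 0.00109; measured means -3.46 and -7.72). At E15.5 it was at least 19.4-fold higher than at E12.5 (adjusted p = 7.15e-05). It rose again from E13.5 to E14.5, by 1.09 ± 0.24 (adjusted p = 0.0355), a call lost without any one array of E12.5, E13.5 or E14.5 (0.0580 to 0.145). Fgf14 and Fgf11, intracellular members that do not act as secreted ligands, fell by 1.67 ± 0.24 and 1.14 ± 0.24, and each was above background on 1 of the 2 E15.5 arrays. The Fgf11 call was lost without E12.5 array 2 or either E15.5 array (adjusted p 0.0511 to 0.0735).

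Coreceptors and binding proteins numbered 7 tested of 10 listed. In E13.5 against E12.5 limma called 0 (2 higher at an unadjusted p under 0.05), and over the whole span 2 were higher and 1 lower, beside 17.6% and 17.4% of all genes. Fgfrl1, the receptor without a kinase domain, rose by 0.87 ± 0.19 (adjusted p = 0.0137), from 1.13 and 0.89 at E12.5 to 1.87 and 1.90 at E15.5. Fgfbp3, a carrier that frees FGFs from the matrix, rose by 0.87 ± 0.18 (adjusted p = 0.0115). Both calls were lost without E12.5 array 2 or either E15.5 array (0.0593 to 0.0818). Flrt1, a membrane protein that binds FGF receptors, was not above background from E14.5 on and was at least 1.53-fold lower at E15.5 than at E12.5 (adjusted p = 0.00531). Klb, the coreceptor that Fgf21 needs, read from -4.75 to -3.37 with no call, and Kl was not above background.

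Heparan sulfate genes, which build and trim the sugar chains that FGFs need to bind, were 23 tested of 25 listed, with 4 higher and 3 lower over the whole span, beside 17.6% and 17.4% of all genes, so near the background. Hs6st3, a 6-O-sulfotransferase, fell by 3.69 ± 0.39 (12.9-fold; adjusted p = 0.00106), of which 3.39 lay between E13.5 and E14.5, the step across slides. It read -0.89 and -1.08 at E12.5, -0.77 and -0.92 at E13.5, -4.68 and -3.78 at E14.5, and -4.23 and -5.12 at E15.5, where 1 of the 2 arrays was above background. The N-sulfotransferase Ndst1 fell by 1.70 ± 0.29 over the span (adjusted p = 0.00612) and by 1.52 in the step to E14.5. The mean of its probes ended both calls (adjusted p 0.0864 and 0.140), and the step was also lost without either E13.5 array or E14.5 array 1 (0.0922 to 0.105). The core protein Gpc1 rose by 1.91 ± 0.27 (adjusted p = 0.00308), and Sulf2 and Gpc4 rose by 0.93 and 0.89, calls that were lost without either E12.5 array or E15.5 array 2 (adjusted p 0.0503 to 0.0817). Sdc4 fell by 1.37 ± 0.29 from E13.5 to E14.5 (adjusted p = 0.0324), a call lost when any one of 7 of the 8 arrays was left out (0.0505 to 0.139), and its probes disagreed, since the mean of its probes differed by 0.15 over the whole span where the brightest fell by 1.24. Hpse, which cleaves the chains, was not above background at E12.5 and was at least 2.20-fold higher at E13.5 (adjusted p = 0.0338), a call that held without just 1 of the 8 arrays and a rise that normexp background correction turned to -0.017 over the whole span.

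Signal transducers moved little. Of 21 tested, limma called 0 in each step between neighbouring days (1, 4 and 0 at an unadjusted p under 0.05, both directions together), and over the whole span 2 were higher and 4 lower, beside 17.6% and 17.4% of all genes, with a list median of -0.22 beside -0.07 over all genes. Map2k2, a MAP kinase kinase, fell by 1.37 ± 0.34 (adjusted p = 0.0226), Nras by 0.81 and Map2k1 by 0.63. The ubiquitin ligase Cbl, which removes active receptors, fell by 1.40 ± 0.40 (adjusted p = 0.0363) and was above background on 1 of the 2 E15.5 arrays. The adaptor Shc1 rose by 0.86 ± 0.19 (adjusted p = 0.0147) and Pik3ca by 0.70. All 6 calls were lost without 1 or more of the E12.5 and E15.5 arrays, with adjusted p up to 0.199.

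Targets and feedback inhibitors of FGF signalling had a median change below that of all genes in the first steps and over the whole span. Of 17 listed, 14 were tested. From E12.5 to E13.5, 3 were lower and none higher by limma (Dusp4, Etv1 and Ccnd1; 5 lower and 0 higher at an unadjusted p under 0.05), beside 1.3% of all genes lower. From E13.5 to E14.5, 3 were lower (Spred2, Dusp4 and Spry2), beside 6.04%. The Spry2 call was lost when any one of 7 of the 8 arrays was left out (adjusted p 0.0723 to 0.179), that of Spred2 without either E13.5 array or E14.5 array 1 (0.0687 to 0.0865) and that of Dusp4 without E13.5 array 2 (0.0610), and over 18 alternatives 0 to 4 genes of the list were lower. From E14.5 to E15.5 limma called 0, with 0 at an unadjusted p under 0.05. Over the whole span 6 were lower (also Etv4) and 1 was higher (Fos), beside 17.4% of all genes lower and 17.6% higher. The list's median change was -0.50, -0.40, 0.14 and -1.25 in these 4 comparisons, beside -0.06, -0.02, 0.01 and -0.07 over all genes. The median stayed below 0 under every alternative run for the whole span (-1.44 to -0.81, with 3 to 9 genes lower) and for E13.5 against E12.5 (-0.68 to -0.02, with 0 to 3 lower), and its sign turned in some for E15.5 against E14.5.

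Dusp4, a phosphatase of MAP kinases, had the largest change of the list. It read 0.33 and 0.55 at E12.5, -1.41 and -1.18 at E13.5, -3.24 and -3.66 at E14.5, and -4.19 and -3.69 at E15.5. Each stage lay below the one before. The gene fell by 1.74 ± 0.26, then by 2.15, and by 4.38 over the whole span (20.8-fold; adjusted p 0.0188, 0.00899 and 0.000164). Etv1, an ETS factor induced by FGF, went from 1.06 and 1.31 at E12.5 to -0.20 and -0.21 at E13.5 and -0.71 and -0.59 at E15.5. It fell by 1.39 ± 0.18 in the first step (adjusted p = 0.0120) and by 1.84 over the span (adjusted p = 0.000751). Its close relative Etv4 read 0.38 and 0.04 at E12.5, -1.08 and -0.96 at E13.5, and -1.35 and -1.81 at E15.5. The first step of Etv4, -1.23 ± 0.29, did not pass (adjusted p = 0.0785) and the whole span did (-1.79; adjusted p = 0.00501). Etv5 differed by -1.14 ± 0.38 over the span without passing (adjusted p = 0.0566).

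The cyclin gene Ccnd1, a late target of the pathway, fell by 0.92 ± 0.18 to E13.5 (adjusted p = 0.0489) and by 1.60 over the span (adjusted p = 0.00148). Spred2, an inhibitor of Ras signalling, read -2.75 and -2.77 at E12.5 and -3.39 and -3.41 at E13.5, and on slide 3 it was not above background on any array. It was at least 5.87-fold lower at E14.5 than at E13.5 (adjusted p = 0.0188) and at least 6.69-fold lower at E15.5 than at E12.5 (adjusted p = 0.00327). Spry2 fell by 1.35 ± 0.25 over the span (adjusted p = 0.00830), with no difference to E13.5 (0.01). Dusp6 (-0.09 ± 0.27), Spry1 (-0.57 ± 0.19) and Spry4 (0.12 ± 0.36), the feedback inhibitors most often used as a readout of FGF signalling, did not pass over the whole span. Fos, an early response gene, rose by 0.66 ± 0.18 (adjusted p = 0.0289), which normexp correction turned to -0.12. In the first step the calls of Dusp4 and Etv1 were lost without most of the E12.5 and E13.5 arrays (adjusted p 0.0557 to 0.111), and that of Ccnd1 without any one of the 8 (0.0612 to 0.239). Those of Dusp4, Spred2, Etv1, Etv4, Ccnd1 and Spry2 over the whole span held without any one array, with adjusted p at most 0.0499.

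**Figure D5:**
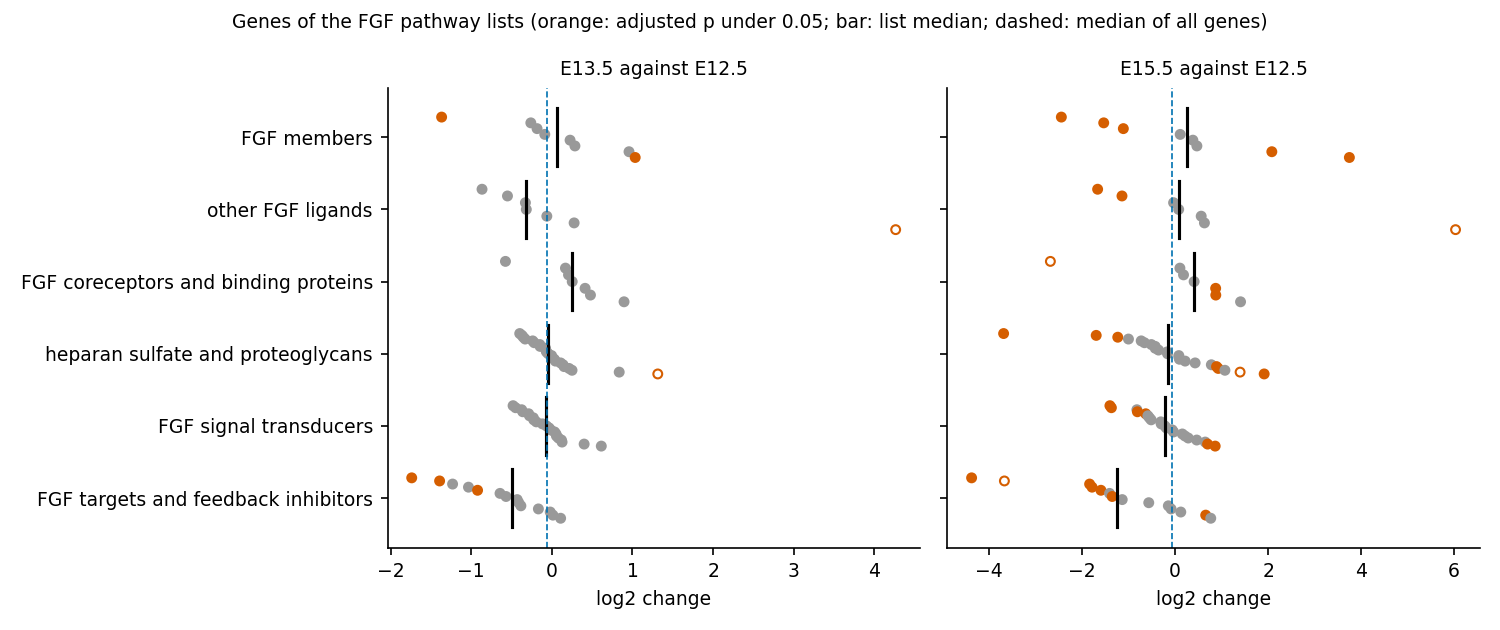
Log2 change (horizontal axis) of every tested gene of the FGF pathway lists between E12.5 and E13.5 (left) and between E12.5 and E15.5 (right); orange marks adjusted p under 0.05, open points genes whose dimmer stage was above background on neither array, black bars the list median and the dashed line the median of all genes. The targets and feedback inhibitors have the lowest medians, -0.50 and -1.25, and Fgf21 lies farthest to the right.

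Markers of other cells moved over the same stages. Of 8 nephric duct and mesonephros markers, 7 were tested and Ret was not above background. Their summed signal, in multiples of the array's 75th percentile, was 4.66 and 4.22 at E12.5, 1.84 and 2.24 at E13.5, 1.92 and 1.33 at E14.5, and 1.21 and 1.30 at E15.5, lower on each array of the 3 later stages than on both E12.5 arrays. Over the whole span Lhx1 and Pax2 were lower and Pax8 was higher. Pax8 was not above background at E12.5 and by E15.5 had risen at least 2.95-fold (adjusted p = 0.0307). Lhx1, a nephric factor, fell by 2.11 ± 0.18 to E13.5 (adjusted p = 0.00314), and it fell by 5.65 over the span. Of 6 endothelial markers the sum went from 14.3 on both E12.5 arrays to 8.33 and 7.64 at E13.5 and 5.43 and 5.35 at E15.5, with Kdr and Cldn5 lower by 2.59 and 1.86 over the span. Of 6 red cell genes 3 were lower at E13.5, the embryonic globins Hbb-bh1 and Hba-x among them, by 1.99 and 1.40. All 6 Leydig cell markers were higher at E13.5, and their sum went from 30.8 and 23.7 to 100.5 and 129.6. Normexp ended all 6 calls, and Lhcgr was above background on neither E12.5 array. The Hsd3b1 and Lhcgr calls were also lost without the background filter and with the array number as a replicate block. Germ cell markers moved as well, with 4 of 10 higher and 1 lower at E13.5 and with 2 higher and 6 lower over the span. Their sum was 74.4 and 69.3 at E12.5, 116.7 and 117.8 at E13.5, and 76.8 and 89.3 at E15.5. The Sertoli and supporting cell sum was 188.1 and 190.4 at E12.5, 239.5 and 239.2 at E13.5, and 182.7 and 182.5 at E15.5. Of 13 markers 1 was called higher at E13.5 and 3 over the span. Over the span 10 of the 13 changes were negative, with a median of -0.36 beside -0.07 over all genes. The interstitial progenitor sum was 35.3 and 34.4 at E12.5 and 49.1 and 58.8 at E15.5, with Pdgfra higher and Ptch1 lower over the span among 7 markers. Of 6 coelomic and surface epithelium markers, Msln rose by 2.10 log2 units to E13.5 and by 4.22 over the span. Lhx2 rose by 0.75 over the span, and the other 4 markers were lower without being called (list median -0.15). The sum of the 6 was 22.2 and 21.5 at E12.5 and 17.3 and 20.2 at E15.5. The calls of Hba-x at E13.5 and of Lhx2 and Pax8 over the span were lost under normexp and without the background filter. Beside all these counts stand 2.68% of all genes higher and 1.3% lower at E13.5, and 17.6% higher and 17.4% lower over the span. The part of any of these cells in the FGF values was not tested.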

How the data were processed

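Each deposited scanner file holds spot intensity on a linear scale. Per the file headers, Agilent Feature Extraction (9.1.3.1 for E12.5 and E13.5, 9.5.3.1 for E14.5 and E15.5) subtracted the background and a spatial trend without scaling between arrays, and the submitters' processing notes name version 9.5. The authors also deposited a table with a linear ratio per probe and stage (column medians 1.14, 1.003, 0.898 and 0.859 by stage), whose centring and scaling are not given in the sources used here. Its direction was borne out by a correlation of 0.998 or above with the centred scanner values, and it was used for directions and sizes alone.

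Spots of a probe were averaged without outlier flags, and log2 values were set against the array's 75th percentile. The brightest probe stood for a gene. Symbols of GRCm38.p6 matched 22951 of 41174 probes by accession. All 8 arrays entered 1 fit of limma 3.58.1 (lmFit, eBayes; R 4.3.3), with Benjamini-Hochberg adjustment over 21986 genes and calls at an adjusted p under 0.05. The number of arrays limits the precision, with 4 residual degrees of freedom plus 2.57 from the moderated variance, and p-values measure only the spread between duplicates. The fit was tested on simulated data. Exact permutation tests used scipy 1.17.1.

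The genes and lists were chosen with earlier results of these data known. Up to 3 called genes per pathway list and comparison were named by size, with Sox9 and Wnt4, up to 2 per cell type list and the 5 nearest patterns. Etv4, Etv5, Dusp6, Spry1, Spry4, Fos, Klb, Pax8, Sulf2, Gpc4, Nras, Map2k1 and Pik3ca were named after their values were seen. Array numbers in the file names were used as a replicate block in an alternative. Other alternatives were the array median, quantile normalization, normexp background correction, other filters on dim probes, the mean of a gene's probes, the slide as a fixed or random block, only the arrays compared, and leaving out each array.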

Additional observations from a re-analysis of the deposited data

How the results depend on the processing

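The signs of Fgf9, Fgf8, Fgf18 and Fgf10 over the whole span, and of Fgfr4, held in all 18 alternatives, and their calls in all but 5 cases: Fgf10 under normexp and without 3 arrays, and Fgf18 under normexp. These signs could turn only under another scaling, under normexp or without an E12.5 or E15.5 array. Each of these genes had 1 probe, so the filters and the mean of probes left the difference unchanged. So did the blocks, only the arrays compared, and leaving out an E13.5 or E14.5 array. Called genes in E13.5 against E12.5 numbered 874. They numbered 2 under normexp, 552 under normexp with 3 extreme background values replaced (an alternative added after seeing the data), 419 without a filter and 139 with only the arrays compared. With the array number as a replicate block there were 544, and 188 to 695 when each array was left out. In E14.5 against E13.5 the 2745 called became 0 under normexp, 872 without a filter, 779 with only the arrays compared, 1611 under the replicate block, and 220 to 2091 when each array was left out. In E15.5 against E14.5 the 144 called became 0 under normexp, 232 with replaced background, 22 with probes above background on all arrays, 226 with slide as a block, 89 under the replicate block, 0 with only the arrays compared, and 0 to 78 when each array was left out. Pairing the slide 3 arrays crosswise gave 157. In E15.5 against E12.5 the 7703 called became 1217 under normexp and 3492 to 7934 when each array was left out.

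Of the FGF genes, the 2 called in E13.5 against E12.5 became 1 with the array median, without a filter and under the replicate block, 0 under normexp and with only the arrays compared, and 0 to 1 when each array was left out. The 3 called in E14.5 against E13.5 became 1 with the array median, without a filter, under the replicate block and with only the arrays compared, 0 under normexp, and 0 to 2 when each array was left out. The 5 called over the whole span became 3 under normexp and 4 to 5 when each array was left out. None was called in E15.5 against E14.5 under any alternative. Normexp turned the signs of Fgf21 from E13.5 to E14.5 (-0.084), and over the whole span of Hpse (-0.017, also with replaced background) and Fos (-0.12, likewise), and the mean of probes turned Sdc4 (0.15). Without a filter Fgf7 passed over the whole span while below background throughout, so no fold is given. The exact permutation test of Fgf9 minus Fgf8 kept p = 0.00952 in all alternatives but those without E14.5 array 2 or E15.5 array 2 (0.0190) and the one with stages exchanged only within slides (0.167). The array median and the mean of probes could not change that test, since scaling cancels within an array and each gene had 1 probe. Its p of 0.00952 is also the smallest that this exact permutation test can give. The median change of all genes moved from 0.01 to -0.13 in E15.5 against E14.5 with the array median. Under normexp it moved from -0.06 to 0.29 in E13.5 against E12.5 and from -0.02 to -0.43 in E14.5 against E13.5. The cause of these differences was not tested. Same-numbered arrays deviated together at E12.5 and E13.5 alone (0.646), which share slides; the other pairs of stages ran from -0.589 to 0.07. Files gave median signals in place of the mean signals planned for normexp. Slide as a fixed block could not be fitted for the comparisons across slides.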
